A study of Mus musculus with 5 samples.

Results

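The genes described here are 9 readers of N6-methyladenosine (m6A), the commonest internal modification of messenger RNA: Ythdf1, Ythdf2, Ythdf3, Ythdc1, Ythdc2, Igf2bp2, Hnrnpa2b1, Prrc2a and Fmr1. They were taken by gene symbol from a table of read counts for 21983 genes, and all 9 were found there and passed the filter on low counts that left 12543 genes for testing. The counts come from RNA sequencing of 5 libraries of microglia, the macrophages that reside in the brain, taken as primary cells from mouse brain. In 2 libraries, called labelled knockout here, the genotype is Cx3cr1CreERT2 Ythdf2fl/fl: a tamoxifen-inducible Cre recombinase sits at Cx3cr1, a locus that microglia and other myeloid cells use, and Ythdf2 is flanked by loxP sites. The 3 control libraries are Ythdf2fl/fl without the Cre, so both groups carry the floxed alleles, and the presence of the Cre cannot be told apart from recombination of Ythdf2. The labels used here do not say whether and when tamoxifen was given, how old the mice were, or whether libraries were pooled or come from separate animals. The p-values therefore reflect the spread among these libraries alone, part of which may be technical. The series' design text asks which processes and pathways change in microglia that lose Ythdf2.

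Readers are proteins that bind transcripts at or near m6A and so tie the mark to the fate of the RNA. The YTH family holds the mark in an aromatic pocket: YTHDF1, YTHDF2 and YTHDF3 are cytoplasmic paralogs linked to translation and decay, YTHDC1 is nuclear and acts in splicing and export, and YTHDC2 is an RNA helicase known best from meiosis in the germ line. IGF2BP2 stabilises bound mRNAs, HNRNPA2B1 is a nuclear RNA-binding protein of splicing and microRNA processing, PRRC2A was described as a reader in oligodendrocyte development, and FMR1 encodes FMRP, a translational regulator of neurons. YTHDF2 recruits the CCR4-NOT deadenylase to its targets, and it is the gene targeted in this study.

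Facts of the whole series bear on every value below. Gene counts summed to 13947500 to 19577217 per library, and pairs of libraries differed far beyond counting noise (chi-square per degree of freedom from 53.4 to 272.5). Of 10 microglia markers 0 were at 0 in all libraries, and their summed level was 4021 and 6733 CPM (read counts scaled to library size with TMM factors) in the labelled knockout libraries, against 7655, 8000 and 8034 CPM in the controls. Of these markers 3 had a positive and 7 a negative log2 fold change. Both labelled knockout libraries lay above every control for 2, P2ry12 and Tmem119, and below for 3 (9.85% and 10.4% of all genes). Cx3cr1, which carries the Cre, was at 337 and 97.7 CPM in labelled knockout libraries and at 682, 992 and 681 CPM in controls. Markers of some other cells also separated the groups. Choroid plexus and ependymal markers (8 of 8 measured, none at 0 in all libraries) summed to 169 and 225 CPM in labelled knockout libraries. In controls they summed to 11.9 to 30.7 CPM. Ttr alone gave 101 and 203 CPM in labelled knockout libraries. Of the 8, 6 were above every control in both labelled knockout libraries (9.85% of all genes), while Foxj1 and Cfap126 overlapped between groups. The 5 monocyte markers summed to 54.5 and 23.4 CPM in labelled knockout libraries, against 3.52 to 6.84 CPM in controls. Most of this in labelled knockout libraries was Ace (38.5 and 13.1 CPM) and Spn (15.2 and 8.32 CPM). Ccr2 overlapped between groups, and Ly6c2 and Plac8 were at 0 in 4 of 5 libraries each. Fibroblast and mural markers (7 of 7 measured) summed to 31.4 and 12.5 CPM in labelled knockout libraries, against 38.9 to 120.4 CPM in controls, with Lum at 0 in both labelled knockout libraries. Endothelial markers went both ways (3 of 4 tested, median log2 fold change -0.29): Vwf was higher and Pecam1 lower in both labelled knockout libraries, and Cldn5 was at 0 in all 5 libraries. Sums overlapped between groups for cycling cells (1272 and 269.6 CPM in labelled knockout libraries, against 92.2, 112 and 304.2 CPM in controls) and for oligodendrocytes (12265 and 4543 CPM, against 10506, 9447 and 1251 CPM). The sums also overlapped for border-associated macrophages, astrocytes, neurons and neutrophils. Single markers did not all overlap. All 6 cycling-cell markers had a positive log2 fold change (median 1.59). In both labelled knockout libraries 3 of these 6 lay above every control (9.85% of all genes). Of 5 border-associated macrophage markers, F13a1 lay above every control in both and Lyve1 below (9.85% and 10.4% of all genes). Of 5 astrocyte markers, Aldoc lay above and Gfap below. In such bulk samples fewer cells of a type and less RNA per cell cannot be told apart, and the part of these markers in the results below was not tested.

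Of the 9 readers, 7 matched the RefSeq table of promoter windows (GRCm38.p6), each running 250 bases before to 50 after the annotated start. The stretches of Ythdf2 and Igf2bp2 are shown because these readers lay furthest above and below the controls, that of Ythdf1 because it is a paralog of Ythdf2 that hardly differed, and that of Fmr1 because its promoter is known for NRF1 and E-box sites. Each stretch ends before the first base that GENCODE M21 assigns to the gene, is written 5′ to 3′ on the gene's own strand, and lies at chr4:132212304-132212506 (minus strand), chr2:180920950-180921186 (minus), chr16:22163300-22163549 (minus) and chrX:68678291-68678540 (plus). Capitals mark matches, on either strand, to the GC box GGGCGG, the E-box CACGTG, the NRF1 palindrome, the cyclic AMP response sequence TGACGT and the ETS core CCGGAA, and none of the matches shown overlap.
Ythdf2: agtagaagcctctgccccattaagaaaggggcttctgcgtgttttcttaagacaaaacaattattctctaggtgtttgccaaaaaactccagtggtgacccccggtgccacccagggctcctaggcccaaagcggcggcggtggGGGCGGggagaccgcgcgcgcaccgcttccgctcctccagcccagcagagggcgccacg
Ythdf1: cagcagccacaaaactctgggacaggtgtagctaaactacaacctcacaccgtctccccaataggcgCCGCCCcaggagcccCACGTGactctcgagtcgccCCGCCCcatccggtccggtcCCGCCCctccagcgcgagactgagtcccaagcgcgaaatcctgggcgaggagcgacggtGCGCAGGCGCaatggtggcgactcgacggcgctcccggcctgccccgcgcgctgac
Igf2bp2: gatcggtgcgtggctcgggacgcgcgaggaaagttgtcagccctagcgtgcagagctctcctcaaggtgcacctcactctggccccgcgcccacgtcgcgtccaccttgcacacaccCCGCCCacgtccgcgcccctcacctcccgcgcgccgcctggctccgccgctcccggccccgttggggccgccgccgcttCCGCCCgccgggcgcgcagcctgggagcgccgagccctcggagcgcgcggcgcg
Fmr1: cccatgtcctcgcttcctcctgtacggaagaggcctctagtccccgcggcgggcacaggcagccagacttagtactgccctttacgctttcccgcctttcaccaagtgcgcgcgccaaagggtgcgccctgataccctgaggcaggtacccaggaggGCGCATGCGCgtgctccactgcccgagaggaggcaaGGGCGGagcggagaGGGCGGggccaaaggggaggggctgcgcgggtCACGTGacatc
Over the whole windows (the first listed where a gene has several), Ythdf2, Igf2bp2 and Prrc2a held 2 GC boxes each and none of the other 4 motifs. Ythdf1 held 3 GC boxes, 1 E-box, 1 NRF1 match and 1 TGACGT, Fmr1 held 2 GC boxes, 1 E-box and 1 NRF1 match, and Ythdc1 held 5 GC boxes and 2 TGACGT matches. Hnrnpa2b1 held no GC box, 1 TGACGT and 1 ETS core. Among 32851 windows of 300 bases, 35.7% held a GC box, 7.15% an E-box, 4.6% the NRF1 palindrome, 7.51% TGACGT and 14.9% the ETS core. A match is only a run of letters, and binding was not measured here.

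Ythdf2 was higher, not lower, in the libraries labelled knockout. It had 1740 and 2346 reads there, against 907, 1092 and 925 reads in the controls. On the scaled level it stood at 103.5 and 126.8 CPM in labelled knockout libraries and at 57.0, 69.2 and 68.8 CPM in controls. Both labelled knockout libraries lay above every control, and the group means were 115 ± 16.5 CPM (SD, n = 2) and 65.0 ± 6.91 CPM (SD, n = 3). The log2 fold change was 0.83 (SE 0.207), with a 95% interval of 0.32 to 1.33. In the edgeR quasi-likelihood test, adjusted over all genes, this gave adjusted p = 0.431, so the difference did not pass the threshold of 0.05. Ythdf2 ranked 220 of 12543 genes by p, with an unadjusted edgeR p of 0.00756. Over all genes the edgeR test called 0 (0% of genes tested), and 838 (6.68%) had an unadjusted p below 0.05. DESeq2 called 244 genes (1.95%), and limma-voom called 0 (0%), with 759 (6.05%) below an unadjusted 0.05.

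The count of Ythdf2 covers the whole gene. Its position is chromosome 4, bases 132184912 to 132212303, on the minus strand of GRCm38 (ENSMUSG00000040025.17). The longest coding transcript has 5 exons and 4129 bases, and its exons are shared with no other annotated gene. The labels do not name the floxed exon, and reads from exons outside a deleted part still count, so the total does not check the deletion. A pair of other annotated genes, Gm6823 and Gm8401, match its transcript over 1840 and 1740 bases at 95.2% and 96.3% identity. Neither is listed in the count table, and the labels do not say how reads that fit several places were handled, which leaves the Ythdf2 count uncertain to that extent. The same search, for at least 150 bases at 95% identity in another gene, found no copy for the other readers except Gm43055, a non-coding RNA on the same strand whose exons cover 4.62% of those of Ythdc1.

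**Figure D1:**
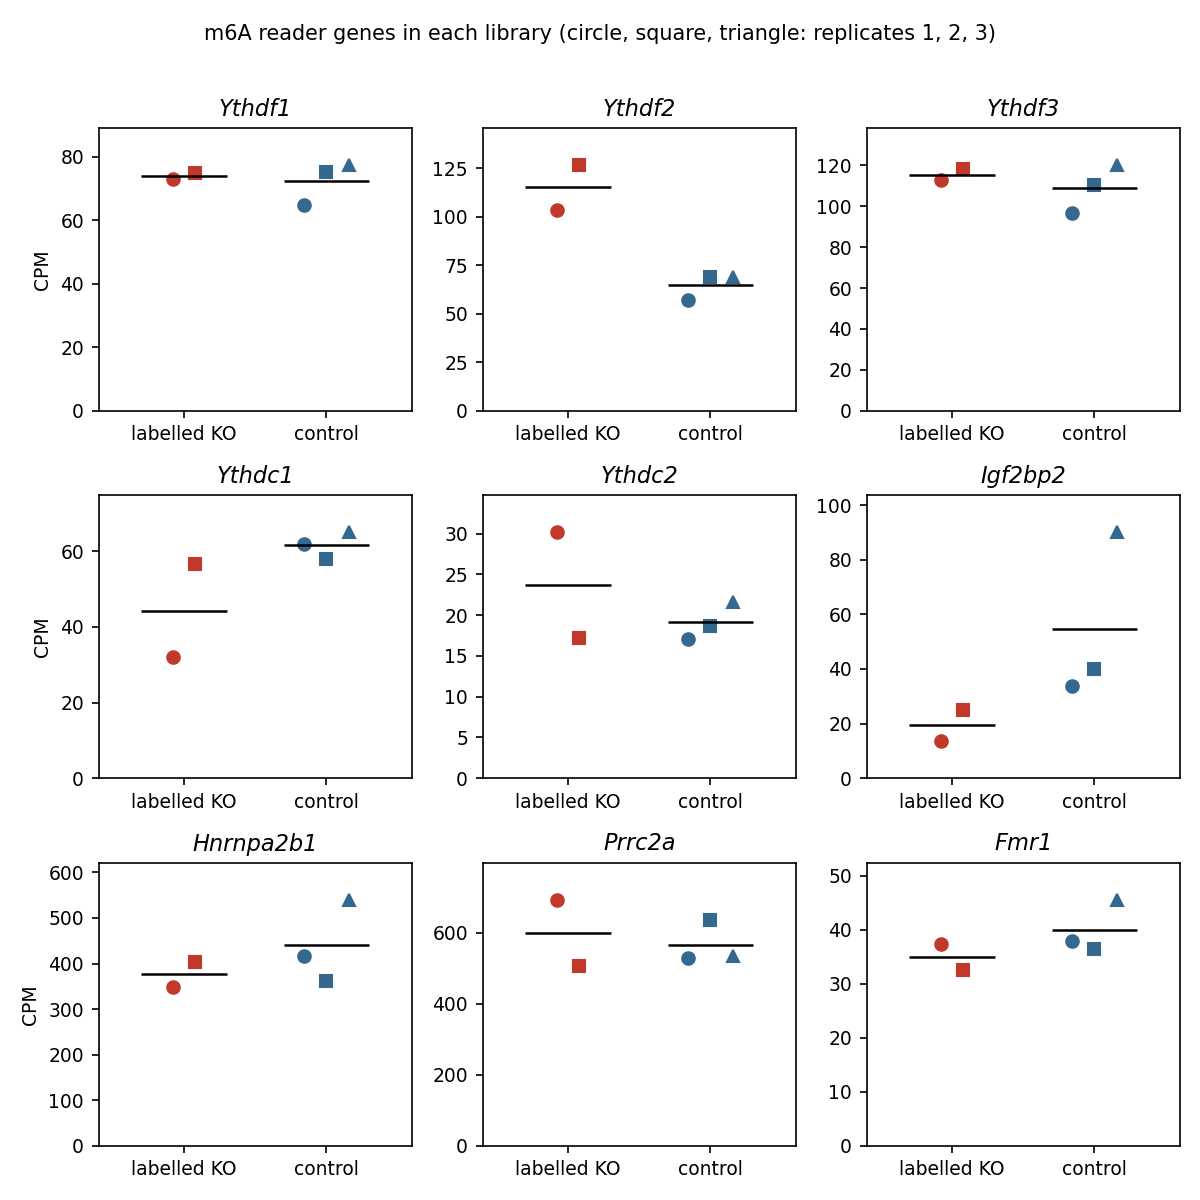
Level of each m6A reader gene in CPM (y axis, from 0) in every library, with labelled knockout (KO) at the left and control at the right. Lines are group means. Ythdf2 stood at 103.5 and 126.8 CPM in labelled knockout libraries, above all 3 controls, and Igf2bp2 at 13.7 and 25.0 CPM, below all 3.

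The sister readers of Ythdf2 hardly differed between groups. Ythdf1, which is linked to translation of marked mRNAs, was at 72.9 and 75.0 CPM in labelled knockout libraries and at 64.7, 75.3 and 77.5 CPM in controls. Ythdf3, which acts with both other paralogs, was at 113 and 118 CPM in labelled knockout libraries and at 96.9, 110 and 120 CPM in controls. In both genes the labelled knockout values fell within the range of the controls. For Ythdf1 the log2 fold change was 0.03 (SE 0.192, 95% interval -0.44 to 0.50), and for Ythdf3 it was 0.08 (SE 0.196, 95% interval -0.40 to 0.56), so changes of the size measured for Ythdf2 lay outside both intervals. The sign of Ythdf1 turned, to -0.041, without control 1.

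Within a library, the makeup of the family can be read without any scaling between libraries. Per kilobase of transcript, Ythdf2 made up 35.7% and 39.7% of the summed YTHDF reads in labelled knockout libraries, against 26.0%, 27.0% and 25.8% in controls. Ythdf1 made up 32.7% and 30.4% in labelled knockout libraries, against 38.2%, 38.1% and 37.7% in controls, and Ythdf3 31.6% and 29.9%, against 35.8%, 34.9% and 36.5%. The controls lay within 1.21 points of each other for Ythdf2, and both labelled knockout libraries lay above them. As the shares sum to 100%, the lower shares of the other genes restate that of Ythdf2, and the levels of both overlapped between groups. The mean share of Ythdf2 was 37.7% ± 2.78 (SD, n = 2) in labelled knockout libraries and 26.3% ± 0.648 (SD, n = 3) in controls, a difference of 11.4 percentage points with an exact two-sided permutation p = 0.2, the smallest that 10 splits of 5 libraries allow. Set against each other per kilobase, Ythdf2 stood at 1.09 and 1.30 times Ythdf1 in labelled knockout libraries, and at 0.68, 0.708 and 0.685 times in controls. The ratio of Ythdf3 to Ythdf1 was 0.968 and 0.982 in labelled knockout libraries and 0.935, 0.914 and 0.969 in controls, with the groups overlapping.

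**Figure D2:**
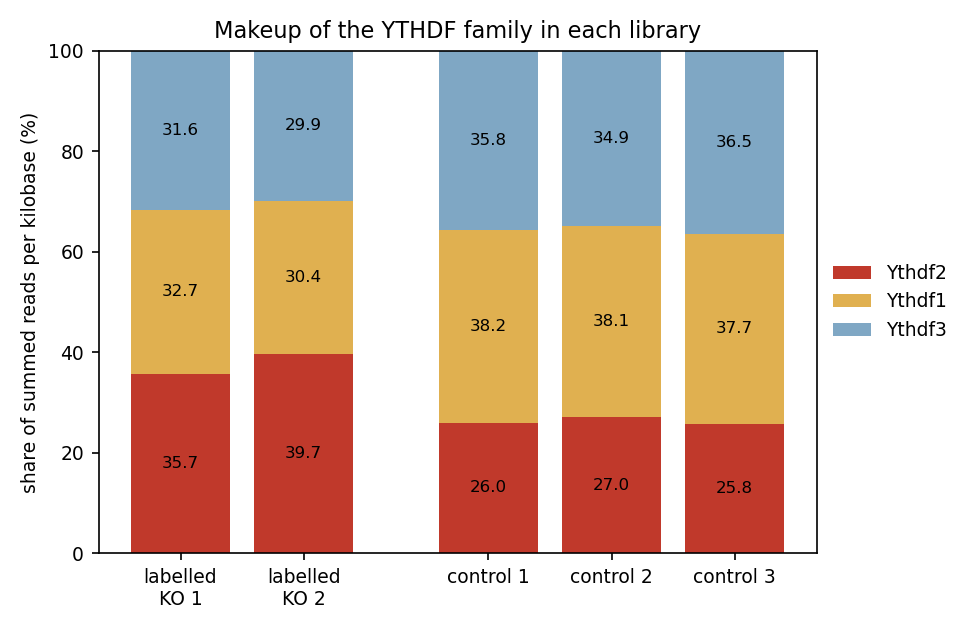
Share of each YTHDF gene in the summed reads per kilobase of the family (y axis, %), with a bar per library and labelled knockout (KO) libraries at the left. Ythdf2 took 35.7% and 39.7% in labelled knockout libraries and 25.8% to 27.0% in controls.

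For the YTH readers outside the YTHDF family, the differences depended on a single library. Ythdc1, the nuclear reader, was at 31.9 and 56.7 CPM in labelled knockout libraries and at 62.0, 57.9 and 65.0 CPM in controls. Labelled knockout 1 was far below the other 4 libraries, and labelled knockout 2 just under the lowest control. The log2 fold change of -0.48 (SE 0.288, 95% interval -1.19 to 0.23; edgeR adjusted p = 0.876) was -0.15 without labelled knockout 1 and -0.95 without labelled knockout 2. Ythdc2, the helicase, showed the opposite pattern, at 30.2 and 17.2 CPM in labelled knockout libraries and at 17.1, 18.6 and 21.6 CPM in controls. Its log2 fold change of 0.31 (SE 0.315, 95% interval -0.47 to 1.09; edgeR adjusted p = 0.924) became -0.18 without labelled knockout 1 and 0.66 without labelled knockout 2. Per kilobase of the longest coding transcript, the ratio of Ythdc1 to Ythdc2 was 2.34 in labelled knockout 1 and 7.26 in labelled knockout 2. In controls it was 8.01, 6.86 and 6.64. Libraries can be compared in this ratio, but its size depends on the lengths used. These were 3269 bases for Ythdc1 and 7215 for Ythdc2, whereas the union of exons has 13651 and 8878 bases. Which of these genes is the more abundant is therefore not settled. Labelled knockout 1 was also the library highest in summed cycling-cell (1272 CPM) and oligodendrocyte (12265 CPM) markers and lowest in summed microglia markers (4021 CPM). Its neuron sum (126.6 CPM) was the highest too, but nearly all of it was Tubb3 (125 CPM), with Snap25 at 0. The same held for its monocyte sum (54.5 CPM), which was mostly Ace (38.5 CPM) and Spn (15.2 CPM). The part of these markers in the values of Ythdc1 and Ythdc2 was not tested.

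Igf2bp2 was the reader with the largest fold change. This member of the IGF2BP family had 231 and 463 reads in labelled knockout libraries, against 536, 633 and 1211 reads in controls. Its level was 13.7 and 25.0 CPM in labelled knockout libraries and 33.7, 40.1 and 90.0 CPM in controls. Both labelled knockout libraries lay below every control, and control 3 stood more than 2 times above the other controls. The group means were 19.4 ± 7.98 CPM (SD, n = 2) and 54.6 ± 30.8 CPM (SD, n = 3). The log2 fold change was -1.49 (SE 0.534, 95% interval -2.81 to -0.17), with an unadjusted edgeR p of 0.0326 and an edgeR adjusted p = 0.679. It was -0.93 without control 3, -1.15 without labelled knockout 1 and -1.99 without labelled knockout 2. Fibroblast and mural markers summed to 31.4 and 12.5 CPM in labelled knockout libraries, against 120.4, 118.8 and 38.9 CPM in controls. Control 3, the control with the most Igf2bp2, had the lowest of these sums among controls. It was also the lowest control in oligodendrocyte markers (1251 CPM) and the highest in cycling-cell markers (304.2 CPM). The part of these markers in the Igf2bp2 values was not tested.

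Igf2bp3, the paralog of Igf2bp2, lay on the other side. It was at 55.2 and 48.4 CPM in labelled knockout libraries and at 31.2, 39.2 and 30.6 CPM in controls. Both labelled knockout libraries were above every control, as was so for 9.85% of all genes. The log2 fold change was 0.62 (SE 0.218, 95% interval 0.09 to 1.16; edgeR adjusted p = 0.669). Per kilobase the ratio of Igf2bp3 to Igf2bp2 was 3.60 and 1.74 in labelled knockout libraries, against 0.83, 0.878 and 0.305 in controls. Igf2bp1, the remaining family member, had 0 to 3 reads per library and was not tested.

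The 3 readers without a YTH domain or a place in the IGF2BP family differed little, and in each the groups overlapped. Hnrnpa2b1 was at 348 and 404 CPM in labelled knockout libraries and at 417, 362 and 539.8 CPM in controls (log2 fold change -0.23, SE 0.263, 95% interval -0.87 to 0.42), and the fold change was -0.05 without control 3. Prrc2a, which encodes a large proline-rich protein, was at 692.8 and 507.7 CPM in labelled knockout libraries and at 529.5, 637.2 and 533.2 CPM in controls. Its log2 fold change of 0.08 (SE 0.256, 95% interval -0.55 to 0.71) turned to -0.19 without labelled knockout 1. Fmr1 was at 37.4 and 32.6 CPM in labelled knockout libraries and at 37.9, 36.4 and 45.6 CPM in controls (log2 fold change -0.19, SE 0.217, 95% interval -0.72 to 0.34), and the fold change was -0.083 without control 3. These intervals hold both a moderate rise and a moderate fall, so equal levels are not shown. Adjusted p over all genes in edgeR was 0.926 for Hnrnpa2b1, 0.969 for Prrc2a and 0.926 for Fmr1.

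**Figure D3:**
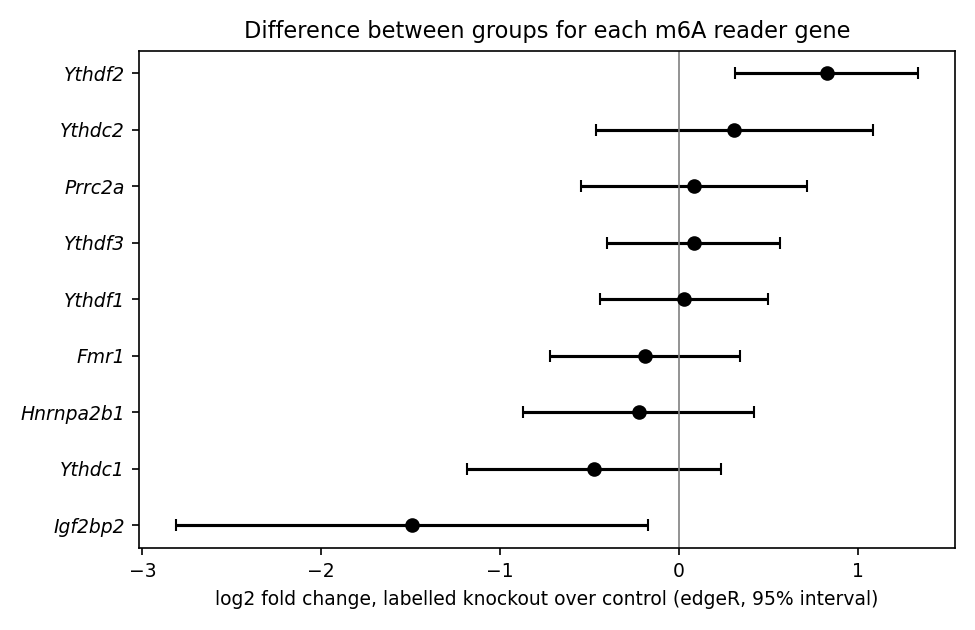
Log2 fold change of labelled knockout over control for each reader (x axis; edgeR, points with 95% intervals, positive means higher in labelled knockout). The interval of Ythdf2 (0.32 to 1.33) lies above 0 and that of Igf2bp2 (-2.81 to -0.17) below it, without adjustment for the number of genes tested; the other 7 include 0.

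Counted together, 0 of the 9 readers passed the edgeR test adjusted over all genes, and 0 passed DESeq2, where Ythdf2 had a DESeq2 adjusted p of 0.0728, or limma-voom. An unadjusted edgeR p under 0.05 was found for 1 higher reader, Ythdf2, and 1 lower, Igf2bp2, against 3.99% and 2.69% of all genes. The groups did not overlap for 1 reader that was higher and 2 that were lower, Igf2bp2 and Ythdc1, against 9.85% and 10.4% of all genes. The median log2 fold change was 0.03 over the readers and 0.01 over all genes tested. The controls varied by 56.5% in Igf2bp2 and by 5.8% to 20.6% in the other readers (coefficient of variation, n = 3). Counting alone gives 6.58% at the lowest count of Igf2bp2, 231 reads. For Ythdc1 it gives 4.32% at 537 reads, the count of labelled knockout 1. The controls, which varied by 5.8%, had more reads (875 to 987), so the 4.32% is not their counting error. For Ythdc2 it gives 6.06% at 272 reads, the count of control 1, against 12.1% among controls.

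**Figure D4:**
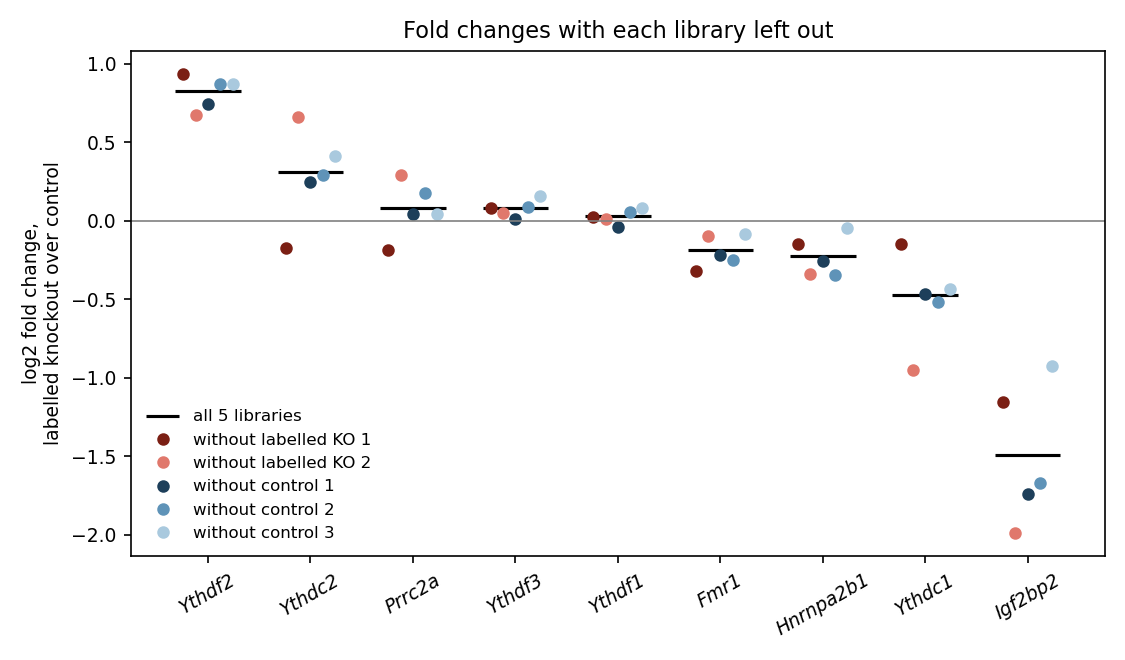
Log2 fold change of each reader (y axis) with all 5 libraries (line) and with each library left out in turn (points; KO, knockout). Ythdf2 stayed between 0.67 and 0.94 and Igf2bp2 between -1.99 and -0.93, while Ythdc2 and Prrc2a fell below 0 without labelled knockout 1 and Ythdf1 without control 1.

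Set in order per kilobase of the longest coding transcript, the readers spanned a wide range. Hnrnpa2b1 was the most abundant, at 201 to 312 CPM per kilobase over the 5 libraries, followed by Prrc2a at 73.7 to 100.6. Ythdf1 (20.3 to 24.3), Ythdf3 (19.0 to 23.6), Ythdf2 (13.8 to 30.7) and Ythdc1 (9.77 to 19.9) came next, and each overlapped its neighbour in this order. Ythdf1 was above Ythdf3 in 5 of 5 libraries, but Ythdf3 was above Ythdf2 in only 3 of 5, the controls. Ythdf2 was above Ythdc1 in 2 of 5, the labelled knockout libraries, and Igf2bp2 above Fmr1 in 3 of 5, the controls. In labelled knockout libraries Ythdf2 led the family, at 25.1 and 30.7 CPM per kilobase, and in controls it was the lowest of it, at 13.8, 16.8 and 16.7. Igf2bp2 (3.52 to 23.1) and Fmr1 (7.4 to 10.3) also overlapped, and Ythdc2, at 2.37 to 4.18 CPM per kilobase, came last in all libraries except labelled knockout 1, where Igf2bp2 was lower (3.52 against 4.18). With the union of exons as length, Prrc2a came first and Hnrnpa2b1 second, and Ythdc1 fell behind Igf2bp2 and Fmr1, so these places depend on the transcript model.

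**Figure D5:**
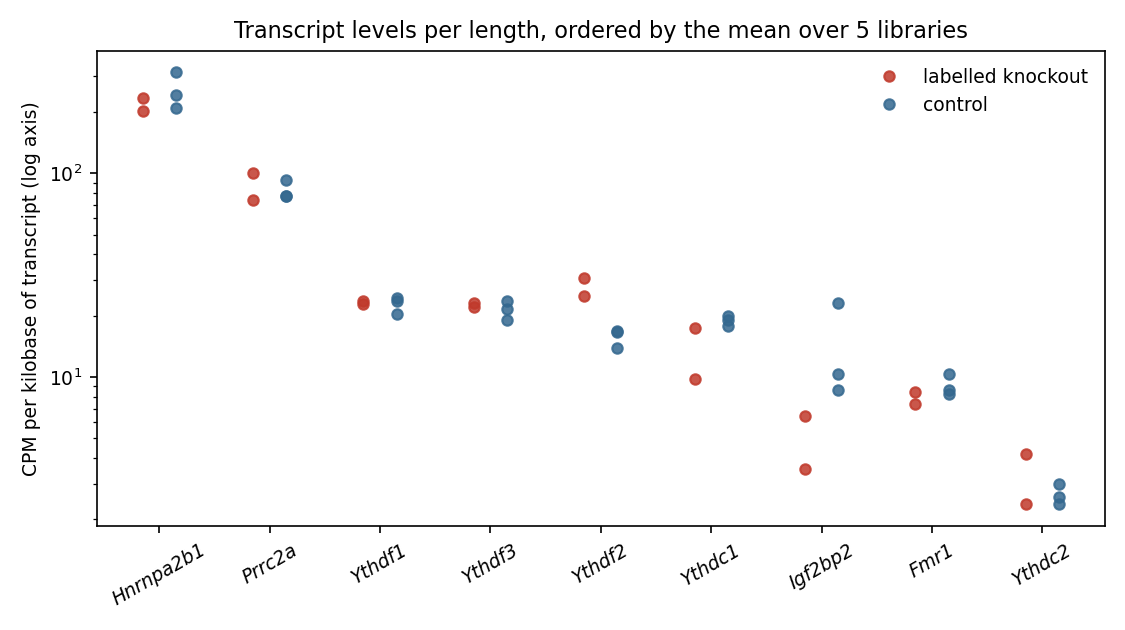
Level of each reader per kilobase of its longest coding transcript (y axis, CPM per kilobase, log axis), with labelled knockout points left of control points and genes ordered by their mean over 5 libraries. Hnrnpa2b1 and Prrc2a lie above the rest, and Ythdc2, at 2.37 to 4.18, has the lowest mean.

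The readers' own transcripts carried few or many copies of GGACT, the commonest form of the m6A consensus. The longest coding transcript held 5 copies in Ythdf2 (1.21 per kilobase) and 5 in Igf2bp2 (1.28), against 1 in Ythdf1 (0.314) and 1 in Ythdf3 (0.196). Prrc2a held 11 copies (1.6 per kilobase), Ythdc2 3, Ythdc1 and Fmr1 2 each, and Hnrnpa2b1 0. The median over 12470 tested coding genes was 1.05 per kilobase, and 93.1% held at least 1 copy. Methylation itself was not measured.

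Profiles over the 5 libraries were compared with that of Ythdf2 by the root mean square difference of centred log2 CPM. The 8550 other genes compared had a mean of at least 10 CPM and no provisional symbol (Rik, or Gm or LOC with a number). Most like Ythdf2 among them were Pgpep1, Cercam, Susd1, Hgsnat and Il4ra (0.072 to 0.097). Pgpep1, a pyroglutamyl peptidase gene, was at 61.0 and 73.1 CPM in labelled knockout libraries and at 36.2, 45.0 and 44.4 CPM in controls. Hgsnat, which encodes a lysosomal acetyltransferase of heparan sulfate breakdown, was at 445 and 556.5 CPM in labelled knockout libraries and at 281, 328 and 352 CPM in controls. Il4ra, the interleukin 4 receptor chain gene, was at 202 and 217 CPM in labelled knockout libraries and at 109, 123 and 142 CPM in controls. None of the 5 passed the edgeR test, with adjusted p of 0.482 to 0.679. As the 5 were picked for a profile like that of Ythdf2, their difference between groups follows from that choice. The other YTHDF genes were further away than these 5, with a difference of 0.395 for Ythdf1 and 0.37 for Ythdf3. Their ranks by likeness were 1383 for Ythdf1 and 1027 for Ythdf3 of the 8550 genes, so most genes were further away still.

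Since edgeR called 0% of all genes tested, the absence of calls in the lists that follow says nothing particular to them. Of the 9 writers, which are subunits of the methyltransferase complex and the separate enzyme gene Mettl16, 0 of 9 tested passed (0% of all genes). Among them 5 had a positive and 4 a negative log2 fold change, and the median was 0.07. Virma, a scaffold of that complex, was at 119 and 89.7 CPM in labelled knockout libraries and at 67.1, 88.1 and 81.4 CPM in controls (log2 fold change 0.40, SE 0.230). Mettl3, the catalytic subunit, was at 6.72 and 14.8 CPM in labelled knockout libraries and at 20.2, 12.99 and 15.3 CPM in controls, with the low value again in labelled knockout 1. The erasers Fto and Alkbh5, which remove the mark, stood at a log2 fold change of 0.30 (SE 0.260) for Fto and 0.21 (SE 0.349) for Alkbh5, and 0 of 2 passed.

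Of 9 paralogs of the readers 8 were tested and 0 passed (0% of all genes), 3 positive and 5 negative, with a median of -0.14. Besides Igf2bp3, the smallest p belonged to Hnrnpa1, a relative of Hnrnpa2b1, at 44.6 and 38.5 CPM in labelled knockout libraries and at 57.1, 52.3 and 67.2 CPM in controls (log2 fold change -0.50, SE 0.215; edgeR adjusted p = 0.772). Of 11 partner genes 10 were tested and 0 passed, 5 positive and 5 negative, with a median of -0.03. Cyfip1, which binds FMRP, was at 552.8 and 509.2 CPM in labelled knockout libraries and at 783.5, 985.4 and 869.9 CPM in controls (log2 fold change -0.73, SE 0.245; edgeR adjusted p = 0.645). Srsf10, a splicing factor that YTHDC1 is known to antagonise, was at 48.3 and 41.9 CPM in labelled knockout libraries and at 63.7, 69.6 and 65.3 CPM in controls (log2 fold change -0.55, SE 0.193; edgeR adjusted p = 0.669). Both labelled knockout libraries lay below every control for 3 of the 10 partner genes tested, Cyfip1 and Srsf10 among them, against 10.4% of all genes.

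In the CCR4-NOT deadenylase that YTHDF2 recruits, 0 of 13 genes passed edgeR (0% of all genes), 7 were positive and 6 negative, and the median log2 fold change was 0.01. The smallest p belonged to Tob1, an adaptor of the complex, at 8.86 and 13.2 CPM in labelled knockout libraries and at 8.36, 6.72 and 7.88 CPM in controls, and the next to Cnot2, at 39.3 and 44.3 CPM in labelled knockout libraries and at 45.4, 50.8 and 59.8 CPM in controls. Of 8 other proteins reported to bind at m6A or at sites it exposes, 0 passed, 4 were positive and 4 negative, and the median was -0.03. Elavl1, an mRNA-stabilising protein gene, and Hnrnpc, a nuclear hnRNP gene, stood at log2 fold changes of -0.30 (SE 0.211) and -0.27 (SE 0.188). In these 2 of the 8, both labelled knockout libraries lay below every control, as was so for 10.4% of all genes.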

How the data were processed

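The authors deposited whole-number read counts per gene symbol for 5 libraries, with no normalization that the values show. Per the labels' protocols, Trizol was used for RNA and a NEBNext Ultra kit for libraries. The tools FastQC, STAR and HTSeq and the build mm10 appear per the submitters' processing notes, without versions, annotation or strand setting. Groups came from the sample titles, and the third control's library number was used because its title carries 2 numbers.

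Groups were compared by the two-sided quasi-likelihood F test of edgeR 4.0.16 in R 4.3.3, using filterByExpr, TMM, robust estimation and Benjamini-Hochberg adjustment over 12543 genes at 0.05. The standard error is the log2 fold change divided by the root of F, and 95% intervals use the test's degrees of freedom. Levels in CPM use TMM-scaled totals of tested genes, and profiles log2 CPM with a prior count of 2. DESeq2 1.42.0, limma-voom (limma 3.58.1), other scalings and filters, a replicate block and each library left out were alternatives. The steps were tested on simulated data. Lengths and coordinates come from GENCODE M21 (GRCm38; 21896 of 21983 symbols matched 1 gene), similar transcripts from BLAST 2.17.0 and promoters from RefSeq. Besides the 9 readers and Cx3cr1, named genes are at most 2 per pathway list with the smallest edgeR p and the 5 most like Ythdf2; others (Igf2bp1 and single markers) were named after their values were seen. The readers and lists were chosen with earlier results of these data known.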

Additional observations from a re-analysis of the deposited data

How the results depend on the processing

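Under 15 alternatives (3 other scalings, 2 filters, DESeq2, limma-voom, 2 other quasi-likelihood settings, a replicate block and 5 libraries left out), the log2 fold change of Ythdf2 stayed positive, at 0.67 to 0.94, and adjusted p stayed above 0.05 (0.0728 to 1). That of Igf2bp2 stayed negative (-1.99 to -0.93). No reader was called under any of them. Signs turned for Ythdc2 and Prrc2a without labelled knockout 1 (-0.18 and -0.19) and for Ythdf1 without control 1 (-0.041); with a library left out, their values ran up to 0.66, 0.29 and 0.082. Over all genes edgeR called 0 under the other scalings, filters and quasi-likelihood settings and without each library in turn, limma-voom 0, DESeq2 244 and the replicate block 4; the cause was not tested. The difference in the share of Ythdf2 was 11.2 to 11.4 points with other lengths, and 9.48 to 13.4 points with a library left out.

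With the replicate number as a block, Ythdf2 had a log2 fold change of 0.87 and an edgeR adjusted p of 1. Only numbers 1 and 2 occur in both groups, and deviations from the group means correlated across 12543 genes at 0.15 for number 1 and -0.56 for number 2. The title of control 3 also carries number 2, and its deviations correlated at 0.47 with labelled knockout 2. With 2 libraries in a group their deviations mirror each other, so these values are not independent, and a pairing is not established. The comparison has 2 libraries against 3, with 3 residual degrees of freedom.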
